A study of Mus musculus with 106 samples.

Results

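Foxa2 ChIP-seq peaks of WT mouse liver 4 h after the LXR agonist T0901317 (T09) were set against those of WT liver after vehicle. Both groups were livers of mice of 8 to 12 weeks, precipitated with an anti-Foxa2 antiserum. Each group was deposited as 1 peak list from 1 raw file that stands for 3 replicates, so no value below has a replicate error and no test was made. The sample labels give oral gavage and the series text gives injection. Neither gives the strain, the dose or the vehicle substance for these samples. The members are the 25318 peaks of the T09 list, of 80883 Foxa2 peaks in the 5 Foxa2 lists of the series. A T09 peak that shares no base with any of the 4348 vehicle peaks is called a gained site, and the other T09 peaks are called retained. A vehicle peak that shares no base with a T09 peak is called lost. The words describe presence in a list only, since the Foxa2 lists hold positions and no heights, and the read depth is unknown. In bulk liver, more cells with a site and more binding per cell cannot be told apart.

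Foxa2 is a forkhead transcription factor of the liver that binds its DNA word in compact chromatin and is therefore called a pioneer factor. LXR is a nuclear receptor that senses oxysterols, pairs with RXR and activates genes of cholesterol export and fatty acid synthesis in hepatocytes. T09 and GW3965 are synthetic LXR agonists, and GW4064 is an agonist of FXR, the bile acid receptor.

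Of the promoters in RefSeq (GRCm38.p6, the assembly that mm10 stands for; 250 bases before the start site and 50 after), 407 of 32817 held the centre of a gained site, or 1.24%. The 6 shown belong to metabolic and hepatocyte genes named below. Among genes with a start site in RefSeq's promoter table, which lacks some genes, they are the first such promoters along the T09 list. They are printed 5′ to 3′ on the strand of the gene. Capitals mark the forkhead words TGTTTAC and TATTTAC, searched on both strands, which read GTAAACA and GTAAATA on the other strand.
Insig2: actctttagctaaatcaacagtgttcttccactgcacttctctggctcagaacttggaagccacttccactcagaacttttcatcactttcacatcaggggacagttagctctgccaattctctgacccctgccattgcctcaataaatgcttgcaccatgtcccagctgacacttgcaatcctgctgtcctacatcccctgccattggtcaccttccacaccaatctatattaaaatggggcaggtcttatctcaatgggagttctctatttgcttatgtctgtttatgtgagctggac
Alb: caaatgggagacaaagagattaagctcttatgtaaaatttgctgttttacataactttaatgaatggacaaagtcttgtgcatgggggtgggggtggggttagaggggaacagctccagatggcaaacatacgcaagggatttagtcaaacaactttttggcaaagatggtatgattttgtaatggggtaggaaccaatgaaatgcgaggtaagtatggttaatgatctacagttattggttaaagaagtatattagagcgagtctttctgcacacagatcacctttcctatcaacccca
Acox2: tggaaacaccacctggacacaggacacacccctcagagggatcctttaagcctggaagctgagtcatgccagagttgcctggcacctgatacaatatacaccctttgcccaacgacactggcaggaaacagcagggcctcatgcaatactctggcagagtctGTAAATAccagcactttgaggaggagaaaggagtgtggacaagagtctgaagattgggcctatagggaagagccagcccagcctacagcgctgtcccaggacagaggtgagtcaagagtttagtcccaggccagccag
Elovl6: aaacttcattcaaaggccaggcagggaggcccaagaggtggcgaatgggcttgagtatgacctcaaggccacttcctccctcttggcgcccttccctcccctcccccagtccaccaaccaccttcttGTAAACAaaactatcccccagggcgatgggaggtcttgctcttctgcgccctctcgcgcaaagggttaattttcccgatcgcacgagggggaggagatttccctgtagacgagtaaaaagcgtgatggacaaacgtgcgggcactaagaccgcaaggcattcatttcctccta
Nr1i2: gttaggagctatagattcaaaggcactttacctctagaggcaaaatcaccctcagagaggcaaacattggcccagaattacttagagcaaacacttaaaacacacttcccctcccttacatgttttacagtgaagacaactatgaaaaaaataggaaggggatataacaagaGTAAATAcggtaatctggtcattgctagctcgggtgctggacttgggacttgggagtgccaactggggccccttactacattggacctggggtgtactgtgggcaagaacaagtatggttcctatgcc
Ehhadh: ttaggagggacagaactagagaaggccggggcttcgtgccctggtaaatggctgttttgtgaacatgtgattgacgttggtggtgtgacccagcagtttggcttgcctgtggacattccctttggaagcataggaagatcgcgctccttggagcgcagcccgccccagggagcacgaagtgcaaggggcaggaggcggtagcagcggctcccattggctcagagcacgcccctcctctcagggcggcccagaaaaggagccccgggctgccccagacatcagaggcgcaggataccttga
Insig2, which keeps the SREBP lipid regulators in the endoplasmic reticulum, had its gained site at chr1:121332448-121332910, with the centre at position -90 from the start site. Alb, which encodes albumin, had one at chr5:90460661-90460931, centred at -74. Elovl6, which elongates palmitate, had one at chr3:129531990-129532419, centred at -181, and a word at -123 to -117. Nr1i2, which encodes the xenobiotic receptor PXR, had one at chr16:38294756-38295184, centred at -146, and a word at -78 to -72. Acox2, a peroxisomal oxidase of bile acid synthesis, had one at chr14:8258595-8259054, centred 15 bases after the start site, and a word at -88 to -82. Ehhadh, a peroxisomal enzyme of fatty acid oxidation, had one at chr16:21787858-21788065, centred at -127. The windows of Insig2, Alb and Ehhadh do not hold these letters, which says nothing about binding by Foxa2 there.

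Foxa2 was listed at 25318 sites with T09, against 4348 with vehicle, or 5.82 times as many. Gained sites numbered 21110 (83.4% of the T09 list) and retained sites 4208 (16.6%). Lost sites numbered 124, or 2.85% of the vehicle list. The T09 list is so much longer than the vehicle list that most of its sites had to be gained. The gained share at full length therefore mostly restates the lengths of the lists. Gained sites were unevenly spread along the T09 list, which holds no score. Its order of entries was read as a rank because the share found with vehicle falls along it. The gained share is the remainder of that share, so its rise restates this reason and is no separate support. With the list divided into 10 equal parts, 11.0% of sites were gained in part 1, 54.1% in part 2 and 82.1% in part 3. From part 5 on, 97.0% to 99.7% were gained. The vehicle list of the GW4064 experiment does not define gained sites. The share of all T09 sites found in it fell from 87.2% in part 1 to 0.83% in part 10. When the T09 list was read only to its first 4348 entries, the length of the vehicle list, 1160 sites were gained, or 26.7%. At that equal length 1143 vehicle sites had no T09 site. Lists of equal length whose shared peaks match nearly peak for peak must give near-equal gained and lost counts. The balance is thus by construction and says nothing about the direction of change.

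**Figure D1:**
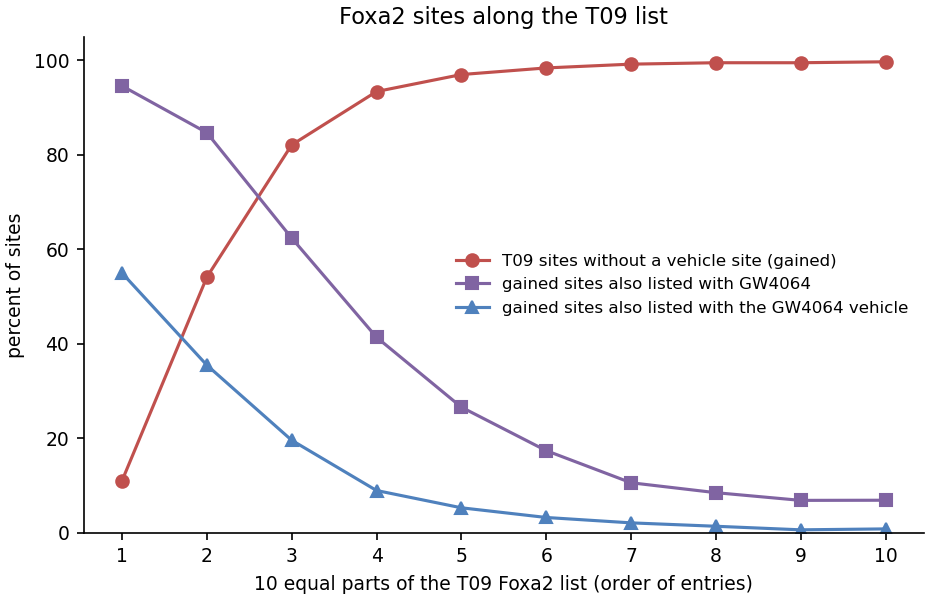
Percent of sites (y axis) in each of 10 equal parts of the T09 Foxa2 list in the order of its entries (x axis), 1 library per list. The circles are T09 sites without a vehicle site and rise along the list to 99.7%. The squares and triangles are the gained sites that the separate GW4064 and GW4064 vehicle lists also hold, which end at 6.9% and 0.832%.

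The Foxa2 lists of the GW4064 experiment have a vehicle of their own and give a second look at the same sites. Of the gained sites, 4253 (20.1%) were in the GW4064 list and not in its vehicle list, 1595 (7.56%) were in that vehicle list, and 15262 (72.3%) were in neither. Among the 1160 gained sites of the first entries, 554 (47.8%) were in the GW4064 list alone, 503 (43.4%) in its vehicle list and 103 (8.88%) in neither. Among the retained sites, 951 (22.6%) were in the GW4064 list alone, 3154 (75.0%) in its vehicle list and 103 (2.45%) in neither. A gained site near the top of the list was thus often listed in the other vehicle livers, and one near the bottom was seldom listed in either GW4064 list.

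Gained sites had a median width of 286 bp, against 318 bp for retained sites. The middle of the gained distribution ran from 218 to 396 bp, and 181 gained sites were 1000 bp or wider. At 4187 retained sites that matched 1 vehicle peak each, the median width was 317 bp with T09 and 245 bp with vehicle. The T09 peak was the wider of the pair at 3577 of them (85.4%), the narrower at 589 and of equal width at 21. So retained sites were also drawn broader in the T09 list, by a median ratio of 1.24.

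The lost sites stood late in the vehicle list, with a median entry of 3814.5. They had a median width of 230.5 bp, and 19 of the 117 on chromosomes with start sites in RefSeq's promoter table lay within 1 kb of one. The first 5 along the vehicle list were nearest to E030030I06Rik (entry 497), Txn2 (entry 2008), which encodes mitochondrial thioredoxin, Mrps27 (entry 2274), a mitochondrial ribosomal protein, Pdgfa (entry 2390), a growth factor, and Eloa (entry 2508), a subunit of elongin. Of the 124, 68 were listed with GW4064 and 20 with the GW4064 vehicle.

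The first 10 gained sites along the T09 list were nearest to Hjurp (entry 104), Tmem267 (119), Man2a1 (415), Hdhd5 (667), Akr1d1 (668), Prr16 (714), 1700066M21Rik (840), Adh4 (867), Mtss1 (921) and Mdfic (933). The sites at Hjurp and Tmem267 were 8428 and 4772 bp wide. Both lay in regions that hold peaks of all 4 antibodies of the series, of which there are 102, together 390 kb; 98 gained sites (0.464%) lay in such regions. The others were 333 to 1045 bp wide and lay outside them. Man2a1, a Golgi mannosidase, held the site at chr17:64747389-64748433 in its gene body. Akr1d1, a reductase of bile acid synthesis, had its site at chr6:37619005-37619337, 44250 bp beyond the gene. Adh4, an alcohol dehydrogenase, had its site at chr3:138410191-138410853, 4934 bp from the gene. Of the 8 outside the shared regions, all were listed with GW4064, and those at Prr16, 1700066M21Rik, Adh4, Mtss1 and Mdfic were also listed with the GW4064 vehicle.

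Genes were given a site when its centre lay in the gene or within 10 kb. Of 21896 protein-coding genes, 7820 had a gained site (35.7%), 2648 had a vehicle site (12.1%) and 5964 had a gained site and no vehicle site (27.2%). Genes already bound with vehicle were more often among those with a gained site: 70.1% of them had one, against 31.0% of genes without a vehicle site. When only gained sites of the first entries were counted, 881 genes had one (4.02%). The counts of the lists below are read against these shares. Longer genes have more room for sites, so sites per megabase of gene and flank are given beside them; over all genes there were 10.1 gained and 2.46 vehicle sites per megabase.

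**Figure D2:**
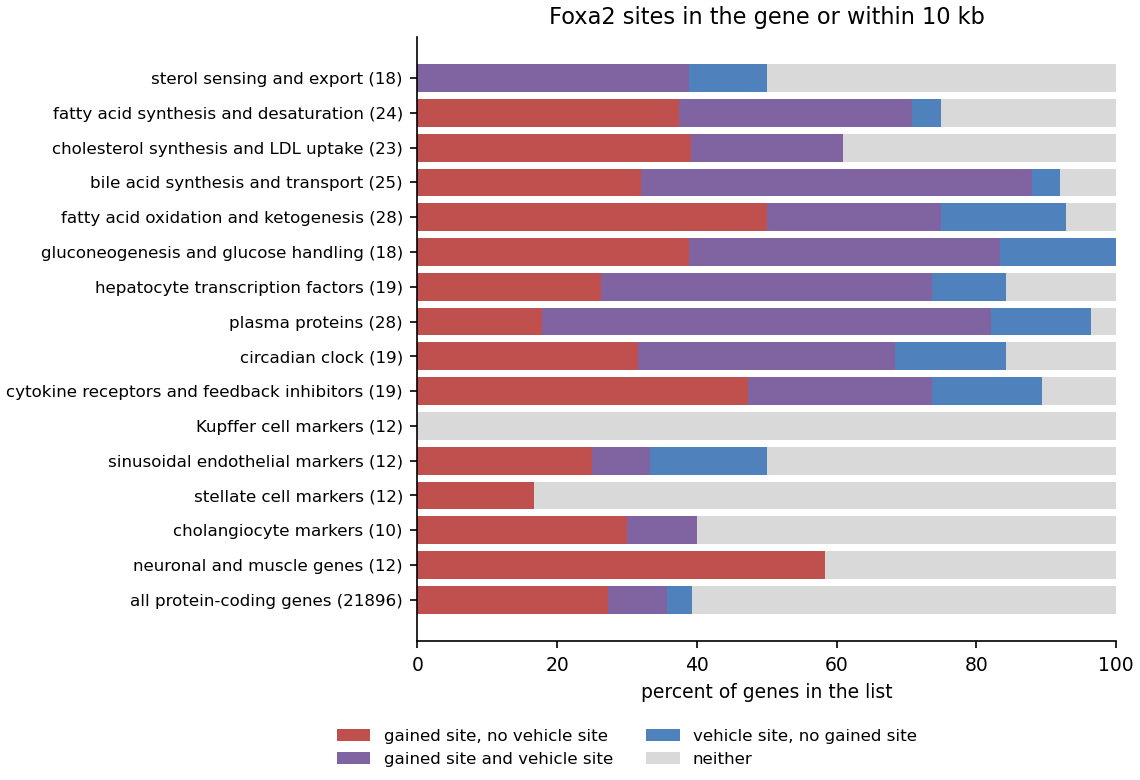
Percent of genes in each list (x axis; the number of genes stands in brackets) with a Foxa2 site in the gene or within 10 kb, split by gained site, vehicle site, both or neither. A gained site was present at 88.0% of the bile acid genes and at none of the Kupffer cell markers, against 35.7% of all genes.

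Genes of sterol sensing and export, many of them direct LXR targets, had a gained site at 7 of 18 members (38.9%), which is near the share of all genes, and a vehicle site at 9 (50.0%). By density they lay above all genes, with 23.4 gained and 12.3 vehicle sites per megabase. All 7 also had a vehicle site, so no member had a gained site without a vehicle site. Abca1, which exports cholesterol to apolipoprotein A-I, had 6 gained sites and 1 retained site. Its first gained site was entry 1339 at chr4:53080218-53080655, in the gene body and 79459 bp from the start site. Abcb4, the phospholipid pump of bile, had 3 gained and 2 retained sites. Lpcat3, which builds polyunsaturated phospholipids, and Apoe, an apolipoprotein of remnant particles, each had 3 gained and 1 retained. Apoe lies beside Apoc1, and the first gained site of both is the same peak, at entry 9021. Abcg5 and Abcg8, the neighbouring genes of the sterol pump of bile, had 2 and 1 gained sites. Their shared promoter site is 1 peak, at entry 11288. Abcg1 had its single T09 site retained. Nr1h3, which encodes LXRα, had no T09 site and no vehicle site, and neither did Nr1h2, Mylip, Rnf145, Pltp, Lpl, Smpdl3a, Npc1l1 or Arl4c.

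Lipogenic genes had a gained site at 17 of 24 members (70.8%), 9 of them without a vehicle site. The density was 26.4 gained and 8.04 vehicle sites per megabase. Elovl6 had 7 gained sites and no vehicle site, among them entries 3236, 3555 and 3936. Acaca, the carboxylase that commits carbon to fatty acids, had 5 gained and 2 retained sites, and Gpam, which starts glycerolipid synthesis, had 5 gained and 1 retained. Scd1, the stearoyl-CoA desaturase, had 4 gained sites and no vehicle site. Srebf1, which encodes the lipogenic factor SREBP1, had 1 T09 site. It was gained, entry 4108 at chr11:60219661-60220059, 768 bp from a start site, and it was listed with GW4064 and not with the GW4064 vehicle. Fasn, the fatty acid synthase, had 1 gained site far down the list, at entry 18592.

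Cholesterol synthesis and LDL uptake genes had a gained site at 14 of 23 members (60.9%), 9 of them without a vehicle site. The density was 28.3 gained and 7.09 vehicle sites per megabase. Srebf2, the sterol-regulated factor SREBP-2, had 5 gained sites and no vehicle site. Sc5d, a late enzyme of the pathway, had 4, and Hmgcs1, an early one, had 3, with no vehicle site at either. Insig2 had 3 gained and 1 retained, and Fdft1, the squalene synthase, 3 gained and 2 retained.

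Bile acid genes had the highest share of the 15 lists, with a gained site at 22 of 25 members (88.0%) and a vehicle site at 15. They had 30.8 gained and 13.5 vehicle sites per megabase. Cyp7a1, the rate-limiting enzyme of bile acid synthesis, had 2 gained sites and no vehicle site. The first was entry 3144 at chr4:6275655-6276043, 216 bp outside the gene, and the second entry 7775 at chr4:6278596-6278826, 3078 bp outside it. Cyp7b1, of the alternative route, had 7 gained and 1 retained. Baat, which joins bile acids to taurine, had 5 gained and 1 retained. Cyp8b1, the sterol 12-hydroxylase that sets cholic acid, had 2 gained sites, against 3 retained. Slc51a and Slc51b, the basolateral bile acid exporter, had no T09 site.

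Fatty acid oxidation and ketogenesis genes had a gained site at 21 of 28 members (75.0%), and 14 of these had no vehicle site. There were 30.2 gained and 7.94 vehicle sites per megabase. Ppara, the fatty acid receptor, had 8 gained and 2 retained sites, and Ppargc1a, its coactivator, had 7 gained sites and no vehicle site. Genes of gluconeogenesis and glucose handling had a gained site at 15 of 18 (83.3%) and the highest density of gained sites, 46.7 per megabase, with 17.4 vehicle sites per megabase. Insr, the insulin receptor, had 9 gained sites and no vehicle site, and Tat, tyrosine aminotransferase, had 5 gained and 3 retained. Pck1, a control enzyme of gluconeogenesis, had 1 gained and 1 retained, whereas G6pc, which releases glucose, had 2 gained and no vehicle site.

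Hepatocyte transcription factor genes had a gained site at 14 of 19 members (73.7%), with 38.1 gained and 18.5 vehicle sites per megabase. Foxa2 itself had 3 T09 sites, all retained and all listed with the GW4064 vehicle, and no gained site. Foxa1 and Foxa3, its close relatives, had 2 and 3 gained sites and no vehicle site. Nr5a2, a nuclear receptor of bile acid and cholesterol genes, had 11 gained sites and 1 retained, with gained entries between 2464 and 20253. Prox1, a repressor partner of nuclear receptors, had 5 gained and 2 retained, and Nr1i2 had 3 gained and 3 retained. Hnf4a, which governs hepatocyte identity, had 2 gained and 1 retained.

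Plasma protein genes had a gained site at 23 of 28 members (82.1%), but 22 already had a vehicle site. Their density was 44.1 gained and 30.7 vehicle sites per megabase. Gained sites were there 1.44 times as many as vehicle sites, the lowest ratio among the lists with a vehicle site, against 4.1 over all genes. A ratio below that of all genes was not particular to this list. The other lists ran from 1.7 (clock genes and cytokine genes) to 4.0 (cholesterol synthesis and LDL uptake). Only the cholangiocyte markers lay above, at 8.0 with 1 vehicle site. Alb had 5 gained and 2 retained sites. Ttr, which encodes transthyretin, had 3 gained and 1 retained. Apoa1, the main protein of HDL, had 3 gained sites and no vehicle site, the first of them (entry 3161) shared with its neighbours Apoa4 and Apoc3.

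Clock genes had a gained site at 13 of 19 (68.4%) and cytokine receptor and feedback genes at 14 of 19 (73.7%). Clock genes had 18.0 gained and 10.6 vehicle sites per megabase, and the cytokine genes 28.0 and 16.5. Rora, a nuclear receptor of the clock loop, had 18 gained and 6 retained sites over a gene of 735 kb. Per2, a clock repressor, had 2 gained and 3 retained. Met, the hepatocyte growth factor receptor, had 6 gained and 3 retained. Stat3, Stat5b and Il1r1, which carry cytokine and growth hormone signals, each had 5 gained sites and no vehicle site. Ghr, the growth hormone receptor, had 5 gained sites and 10 retained.

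Markers of other liver cells differed by list. None of 12 Kupffer cell markers had a gained or vehicle site. Of 12 stellate cell markers, 2 had a gained site (Acta2 and Reln, 16.7%) and none a vehicle site, with 2.08 gained sites per megabase. Of 12 sinusoidal endothelial markers, 4 had a gained site (33.3%) and 3 a vehicle site, with 5.9 gained and 2.95 vehicle sites per megabase. Of 10 cholangiocyte markers, 4 had a gained site and 1 a vehicle site, with 14.6 gained and 1.83 vehicle sites per megabase. The Kupffer and stellate shares thus lay below those of all genes, and the cholangiocyte share of gained sites slightly above. Sox9, a defining cholangiocyte factor, had 1 gained site at entry 14638, and Krt7, Krt19 and Epcam had none. Neuronal and muscle genes, which hepatocytes do not express, had a gained site at 7 of 12 (58.3%) and a vehicle site at none. Their density was 7.84 gained sites per megabase, below that of all genes. None had a gained site of the first entries, and neither did any Kupffer, stellate, endothelial or cholangiocyte marker. Over all genes that share was 4.02%, so none in a list of 10 or 12 genes is near it. The 10 lists described before these had such a site at 5.56% of members (sterol export) to 36.0% (bile acids).

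Gained sites lay farther from start sites than retained ones. The median distance was 29.2 kb for gained sites, 19.5 kb for gained sites of the first entries and 17.7 kb for retained sites. Within 1 kb of a start site lay 5.29% of gained sites, 8.03% of gained sites of the first entries and 9.69% of retained sites. In gene bodies lay 48.6% of gained sites and 53.0% of retained sites, and beyond 10 kb of any protein-coding gene 39.3% and 30.9%. A retained site lay within 10 kb of 10.8% of gained sites and of 21.9% of gained sites of the first entries. The gained sites high in the list thus lay closer to start sites and to retained sites than gained sites as a whole.

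**Figure D3:**
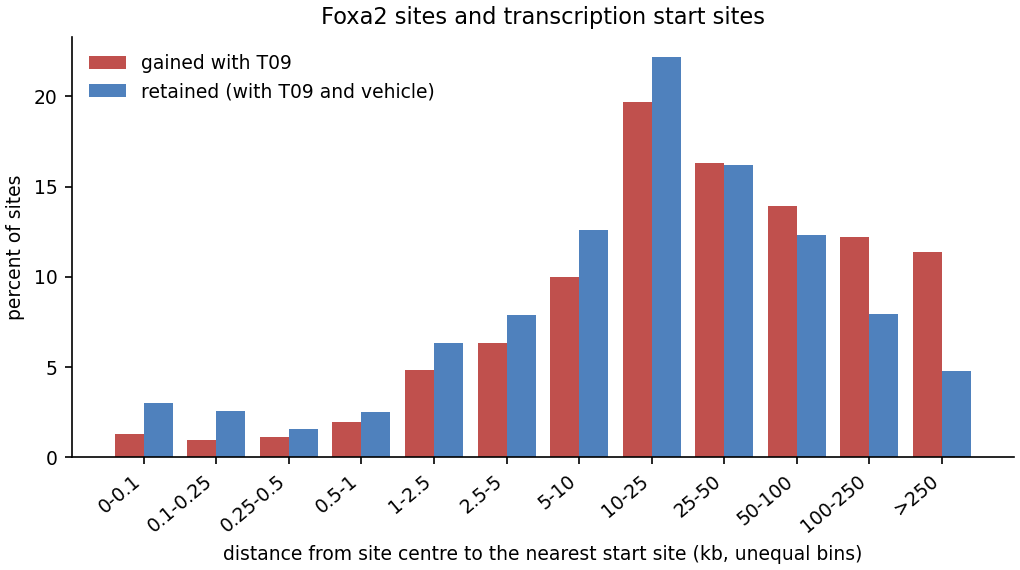
Percent of sites (y axis) by distance from the site centre to the nearest RefSeq start site (x axis, in kb, unequal bins), for sites gained with T09 and retained sites. Gained sites have smaller shares than retained sites up to 25 kb (19.7% against 22.2% in the bin from 10 to 25 kb) and larger shares beyond 50 kb.

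Promoters with a gained site held a forkhead word less often than those with a retained site. The word was present in 99 of 407 promoters with the centre of a gained site (24.3%), in 118 of 219 with a retained site (53.9%), in 6.0% of promoters without a T09 site centre and in 6.54% of all promoters. In the gained promoters the word lay at a median of 25 bp from the site centre, and within 50 bp in 71 of the 99. A direct repeat of AGGTCA with 4 bases between (DR4), the element that LXR pairs bind, was in 5 of all promoters (0.0152%). It was in none of the 407 and in none of the 219 with a retained site. An exact string this rare would seldom be met in so few windows, so its absence there says nothing about LXR elements. A match is a string of letters and not a measured binding site.

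**Figure D4:**
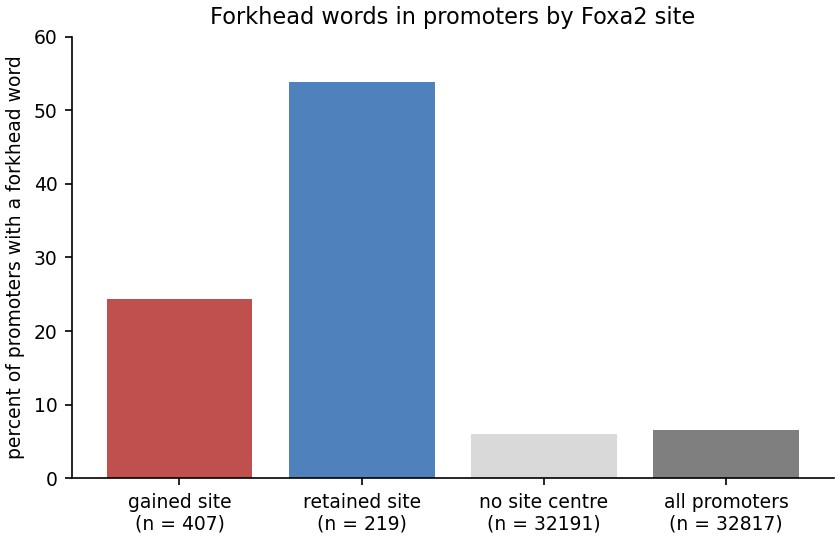
Percent of promoter windows of 300 bases with a forkhead word (y axis), for windows with the centre of a gained site, with a retained site, with no T09 site centre, and for all windows. The bars read 24.3%, 53.9%, 6.0% and 6.54%.

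The median distance from a gained site to the nearest other gained site was 26.6 kb, and 29.2% had another within 10 kb. No spacing of randomly placed sites was set beside these values. Whether gained sites lie closer together than such sites was therefore not tested. Clusters were defined as 5 or more gained sites with gaps of at most 10 kb. There were 59, with 372 sites (1.76% of gained sites), a median span of 18.3 kb and a range of 7.71 to 85.4 kb. There were 32 when sites in the GW4064 vehicle list were left out, and 0 when both lists were read only to their first 4348 entries. Of the 59, 39 had the minimum of 5 sites, and 17 also held a retained site. Clusters fell into 15 with a median peak width of 500 bp or more (131 sites) and 44 with narrower peaks (241 sites), a split chosen after the values were seen.

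The 10 clusters with the most sites were mostly of the wide kind. The largest, of 25 sites over 85.4 kb at Hjurp on chromosome 1, lay wholly in regions with peaks of all 4 antibodies, and 24 of its sites were on LXR peaks. The clusters with Prl2c2 (14 sites), Mup5 (11), Olfr161 (9), Zfp978 (9), Gm42346 (9), Zfp982 (8) and Zfp981 (8) as nearest protein-coding gene were wide. They had median widths of 647 to 2013 bp and 3 to 8 sites each in such regions. The gene is a label of position only. The cluster centres lay 81862 bp from Prl2c2, 323810 bp from Olfr161 and 21692 bp from Zfp978, and at most 752 bp from the others. Prl2c2 had no T09 site within 10 kb. Prl2c2, Mup5 and the Zfp genes have near-identical copies nearby, so the assignment of reads there is uncertain. Of the 10, those near Chil4 and Slc38a4 were narrow and outside the shared regions. Chil4, a chitinase-like protein, lay 12404 bp from the centre of a cluster of 10 sites with a median width of 307.5 bp, of which 1 was listed with GW4064. Slc38a4, an amino acid transporter of the liver, held 9 gained and 2 retained sites in a cluster of 43.1 kb, of which 6 gained sites were listed with GW4064 and 3 lay in regions opened with T09. Further narrow clusters, chosen after their values were seen, lay at Slc27a2, an acyl-CoA synthetase (8 sites, median width 222 bp), at Cyp3a11, a drug-metabolising cytochrome (7 sites, 304 bp), and over the noncoding RNA Neat1 beside Frmd8 (7 sites, 285 bp). None of these 3 held a vehicle site.

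**Figure D5:**
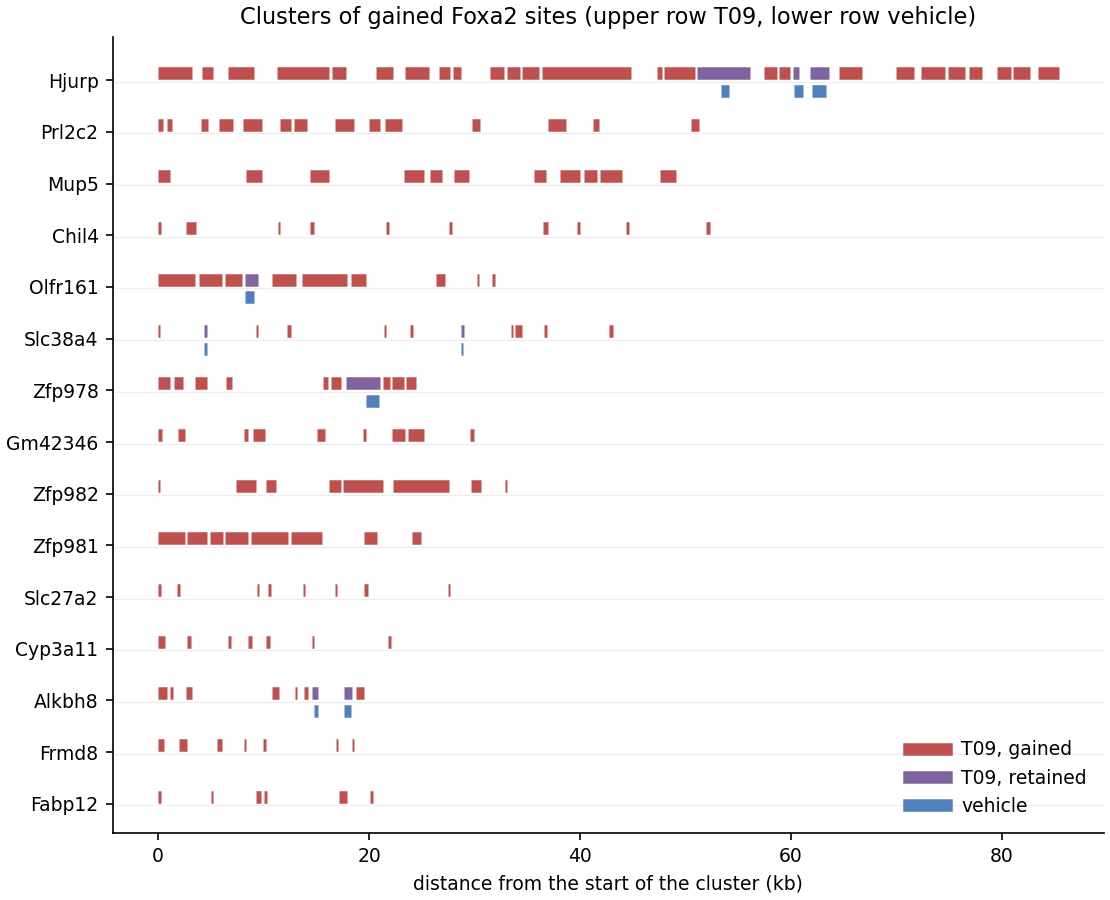
The 15 clusters with the most gained sites, each drawn from its start (x axis, distance in kb) and named by the nearest protein-coding gene, with T09 peaks in the upper row and vehicle peaks in the lower. The Hjurp cluster spans 85.4 kb with 25 wide gained peaks, whereas the Slc38a4, Slc27a2 and Cyp3a11 clusters hold narrow, separate peaks.

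Regions opened with T09 were taken from the authors' deposited list of ATAC-seq regions with more signal after T09 than after vehicle, from 2 libraries each, called with PeakSeq. The share of gained sites in such regions was below that of retained sites, and it was highest for the gained sites of the first entries. The numbers were 787 of the gained sites (3.73%), 70 of the gained sites of the first entries (6.03%) and 198 of the retained sites (4.71%). Of 60868 opened regions, 752 held a gained site (1.24%), and 56 of the first 500 in the list did (11.2%), while 18 of the first 500 held a retained site. Longer regions have more room for a site. The list opens with a region of 36.0 kb, and no share at equal length was computed, so the 2 percentages are not comparable. All opened regions had a median length of 0.113 kb, and those with a gained site 0.88 kb. The median fold in the authors' deposited table was 1.52 for opened regions with a gained site and 3.98 for all opened regions. These groups differ in length, and folds were not compared at equal length, so the lower median is not read as weaker opening. Lpin1, a phosphatidate phosphatase of triglyceride synthesis, held the first region of the list, 36.0 kb wide with a fold of 2.641 in the authors' deposited table, and 1 gained site in it. Got1, an aminotransferase, had 3 gained sites and 1 retained site in the region at entry 18, for which the authors' deposited table gives a fold of 2.129. The gene Serpina3k, of the serpin family, had 4 gained sites in 1 region of 13.6 kb, with a fold of 1.276 in the authors' deposited table. The regions named here were picked with their values in view.

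LXR peaks with T09 rarely coincided with gained Foxa2 sites. The LXR list with T09, of a 3-month-old WT C57BL/6 liver group, held 8095 peaks with a median width of 38 bp. Of the gained sites, 142 (0.673%) overlapped one, against 37 of the retained sites (0.879%). Outside the shared regions the numbers were 84 (0.400%) and 13 (0.311%). The LXR list with vehicle, of 4803 peaks, overlapped 74 gained sites there (0.352%). Of the 84, 66 did not overlap an LXR peak of the vehicle list and 18 did. The Scd1 site at chr19:44388474-44389125, entry 3931, lies 5650 bp outside a gene that LXR activates. It was on an LXR peak with T09 and on one with vehicle, and was listed with GW4064 and not with the GW4064 vehicle. The Srebf1, Cyp7a1 and Abca1 sites were not on LXR peaks, although Srebf1 and Abca1 each had 1 LXR peak with T09 within 10 kb. With vehicle, Srebf1 had 1 LXR peak within 10 kb and Abca1 had 2.

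The other agonists were set beside T09. GW3965 was compared with the same vehicle list, so the 2 comparisons share it, and each is given for itself. T09 gave 21110 gained sites (83.4%), 124 lost sites and 59 clusters, with a gained site at 35.7% of genes. GW3965 gave 16971 gained sites (79.9%) of 21245, 54 lost sites and 166 clusters, with a gained site at 34.0% of genes. GW4064 over its own vehicle of 7306 sites gave 17962 gained sites (79.2%) of 22666 and 2589 lost sites, with 23 clusters and a gained site at 34.2% of genes. Lost sites made up 2.85% of the vehicle list with T09, 1.24% with GW3965 and 35.4% with GW4064. In the regions opened with T09 lay 3.73% of the sites gained with T09, 6.4% of those gained with GW3965 and 3.27% of those gained with GW4064. The median width of gained sites was 286 bp with T09, 260 bp with GW3965 and 90 bp with GW4064. Each agonist list is much longer than its vehicle list, so most of its sites had to be gained, and the gained shares largely restate list length. No difference between agonists was tested, since each list is 1 library.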

How the data were processed

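Foxa2 peak lists of WT liver were used as the authors deposited them, with BWA and the mm10 build named per the submitters' processing notes (versions not given in the sources used here) and peaks called by PeakSeq against input per the labels' series text. The Foxa2 lists hold positions and no other unit: per the labels and the files, starts were read as 0-based and coordinates are printed 1-based. Of the deposited ATAC list, the fold (a ratio of T09 over vehicle), the −log10 of p and the q-value are the authors' own; the fold is the only one printed. In the deposited LXR lists the q-value is the authors' and was not used. Lists were compared with Python 3.11.15, pandas 2.3.3 and numpy 2.4.6, and figures drawn with matplotlib 3.10.9. Peaks were called shared at 1 base of overlap. Sites were assigned to protein-coding genes of RefSeq GRCm38.p6 within 10 kb; start sites of chromosome 18 and of some genes were not in the promoter table and are not analysed here. The overlap, gene and cluster steps were checked on simulated data with known answers. Genes were named as the nearest to the first 10 gained sites, to the 10 clusters with the most sites and to the first 5 lost sites, as up to 4 members per list with the most gained sites, and as Foxa2, Nr1h3, Srebf1, Cyp7a1 and Abca1. Some genes that this rule names are not reported here. Other members named were chosen after their values were seen. The members and gene lists were chosen with earlier results of these data known. The series holds 106 samples in 45 groups; the Foxa2 lists rest on 1 library each, so p-values are not given, and read depth is not known.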

Additional observations from a re-analysis of the deposited data

How the results depend on the processing

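The limits are 1 library per list, lists of unequal length and no peak heights, so a site low in the T09 list cannot be told apart from one missed with vehicle. Of 51 alternatives, 34 gave a count within 1.5 times the one reported and 17 did not. When each list was read to its first 4348 entries there were 1160 gained sites, 1143 lost sites, 881 genes, 0 clusters, 70 gained sites in opened regions, 20 on LXR peaks and 503 in the GW4064 vehicle list. The near-equal gained and lost counts at that equal length follow by construction. With gained sites required to be in neither vehicle list, 657 remained in the first entries, 32 clusters and 0 in the GW4064 vehicle list, the last by construction. A limit of 50 kb gave 13742 genes. Clusters numbered 15 with gaps of 5 kb, 193 with gaps of 20 kb and 4 with 10 or more sites. Split by width, a choice made after seeing the data, 15 had a median width of 500 bp or more and 44 less. Opened regions with a fold of 2 or more held 205 gained sites. Without the regions of all 4 antibodies 84 gained sites were on LXR peaks. The cause of the other shifts was not tested. No paired analysis was possible because each group is 1 list.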

Other observations

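Genes with 10 or more gained sites numbered 64, and many of those with the highest counts were long. Macrod2, of 2000 kb, had 23 gained sites and 1 vehicle site. Ptprd, a receptor phosphatase of 2270 kb, had 21 gained sites and 1 vehicle site. Sik3, a kinase of 211 kb, had 15 gained sites and 2 vehicle sites, and Nfib, a transcription factor of 217 kb, had 14 gained sites and 2 vehicle sites. Zbtb20, a zinc finger factor of 759 kb, had 16 gained sites and 5 vehicle sites. Over the autosomes and X the gained share of T09 sites ran between 79.8% (chromosome 17) and 86.3% (X); the 9 sites on Y and the 2 on the mitochondrial chromosome were all gained.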
